A study of Mus musculus with 14 samples.

Results

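The milk protein genes are the genes of the main secreted proteins of mouse milk, and 8 of them were followed here across mammary tumours: the caseins Csn1s1, Csn2, Csn1s2a, Csn1s2b and Csn3, the whey proteins Wap and Lalba, and the mucin-like Glycam1. They were picked by gene symbol in the array annotation, which gave 9 probes for the 8 genes (2 for Wap and 1 for each other gene) out of 22575 probes and 16877 genes tested. The samples were 12 mammary tumours of Brg1+/- mice, which have 1 mutant and 1 intact copy of the gene for BRG1, a motor subunit of SWI/SNF chromatin remodellers. Total RNA of each tumour, labelled with Cy5, was hybridised beside a common mouse reference RNA labelled with Cy3. There were 14 arrays, since for T172 and for T284 a further array exists that its label marks "biorep". Every tumour had the same genotype, and strain, age, reproductive state, tumour histology and the meaning of the word MIXED in each label were not given in the sources used here. The reference RNA is no normal mammary control, so each value is a log2 ratio of tumour over reference. Tests compared a gene between tumours, and where a ratio is called above or below the reference, that is a description. The sources used here do not say whether each tumour came from a separate animal or which step the second arrays repeat. P-values therefore describe the spread between these samples, which may in part be technical. In bulk tissue, fewer milk-producing cells and less RNA in each such cell cannot be told apart.

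Caseins are phosphoproteins that assemble with calcium phosphate into micelles, with the product of Csn3 at the micelle surface, while whey proteins stay soluble. In the mammary gland these genes are switched on in luminal alveolar cells in pregnancy and lactation by prolactin, which signals through its receptor, JAK2 and STAT5, together with glucocorticoid and with ELF5, an ETS factor of the alveolar lineage. STAT5 binds palindromes of the form TTCNNNGAA.

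The promoters of the members with such a palindrome upstream of their start are shown because STAT5 is a known activator of milk protein genes. Over the 12 tumours, r with Csn2 was 0.835 for Csn1s1 and 0.937 for Glycam1, which have an upstream match. For the members without one in the windows searched, it was 0.904 for Csn1s2a, 0.885 for Wap and 0.430 for Lalba. The r of Lalba did not pass, and the tests are given further on. RefSeq promoter windows (build GRCm38.p6, 250 bases before to 50 bases after the gene's start) were at hand for 6 of the 8 genes. The 250 bases upstream are written 5′ to 3′ on the strand of the gene, with each TTCNNNGAA match in capitals, at chr5:87665958-87666207 on the plus strand for Csn1s1, chr5:87699426-87699675 on the minus strand for Csn2 and chr15:103565082-103565331 on the minus strand for Glycam1.
Csn1s1: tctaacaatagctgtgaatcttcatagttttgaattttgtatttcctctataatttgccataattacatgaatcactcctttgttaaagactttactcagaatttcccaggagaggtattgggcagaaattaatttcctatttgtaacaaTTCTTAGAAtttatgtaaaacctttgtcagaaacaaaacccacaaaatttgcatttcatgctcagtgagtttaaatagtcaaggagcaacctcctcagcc
Csn2: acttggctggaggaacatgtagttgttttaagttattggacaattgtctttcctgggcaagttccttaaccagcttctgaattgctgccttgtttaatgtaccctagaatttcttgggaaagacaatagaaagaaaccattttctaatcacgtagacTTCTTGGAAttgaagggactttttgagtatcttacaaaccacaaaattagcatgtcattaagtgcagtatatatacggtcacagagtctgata
Glycam1: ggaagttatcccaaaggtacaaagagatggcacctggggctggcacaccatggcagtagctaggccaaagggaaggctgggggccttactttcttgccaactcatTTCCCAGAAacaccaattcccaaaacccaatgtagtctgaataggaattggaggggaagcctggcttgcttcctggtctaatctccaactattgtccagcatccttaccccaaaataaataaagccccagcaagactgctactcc
The match began 100 bases before the start in Csn1s1, 93 bases before it in Csn2 and 145 bases before it in Glycam1. The window of Csn1s2a held a match from the 21st base after its start, and those of Wap and Lalba held none of these letters. TTCNNNGAA, which reads the same on both strands, was in 4 of the 6 windows and in 8.3% of all 32851 windows of this length. The sequence TGTTCT, a glucocorticoid receptor half-site searched on both strands, was in the window of Csn1s2a only, 59 bases before the start, and in 19.0% of all windows. A match is a stretch of letters and not a measured binding site.

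All 8 members had a value on all 14 arrays. Over all arrays, the deposited ratios had medians between 0 and 0.018, and any pair of arrays had a Pearson r of 0.465 to 0.898 across probes. The tissue label was checked on luminal epithelial markers. All 10 luminal markers measured differed between tumours, and their mean level, as a difference in log2 ratio from each gene's own mean over tumours, was -4.11 in T176 and between -0.10 and 1.02 in the other 11. T176 had log2 ratios of -3.53 for Krt8, -4.25 for Krt18 and -4.09 for Epcam, so the defining markers of luminal epithelium were low in the tumour labelled T176. Salivary gland markers stood apart in another tumour: their mean level was 3.25 in T2134, 1.30 in T172, 0.77 in T372 and between -1.10 and -0.02 in the rest. These levels are set beside the milk protein values of T176 and T2134 where those are described.

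The first question was whether the milk protein genes differed between the 12 tumours by more than they differed between arrays of one tumour. Most members did, in limma's moderated F-test with Benjamini-Hochberg adjustment over all 16877 genes. That is 7 of 8 members called at an adjusted p under 0.05, against 18.3% of all genes tested. Their spread was wide: the median SD over tumours was 2.34 for the 8 members and 0.386 for all genes tested (log2 ratios, n = 12). Csn1s2a had the largest SD of all genes on the array, Csn2 ranked 11 and Glycam1 ranked 28. Csn1s2b was the member that did not pass (adjusted p = 0.347). Only T172 and T284, with their repeated arrays, supply the within-tumour spread behind all these tests. Each SE given below uses that spread after limma's shrinkage towards the other genes, which made it smaller than measured for every member. The measured and shrunken SDs were 2.26 and 1.09 for Glycam1 and 1.59 and 0.79 for Csn2. They were 1.52 and 0.76 for Csn1s2b and 1.19 and 0.62 for Csn1s1. The pairs of tumours printed below were picked after their values were seen, mostly as a member's highest and lowest tumour. Their p-values are adjusted over all genes within the pair, and not for this choice among 66 pairs.

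**Figure D1:**
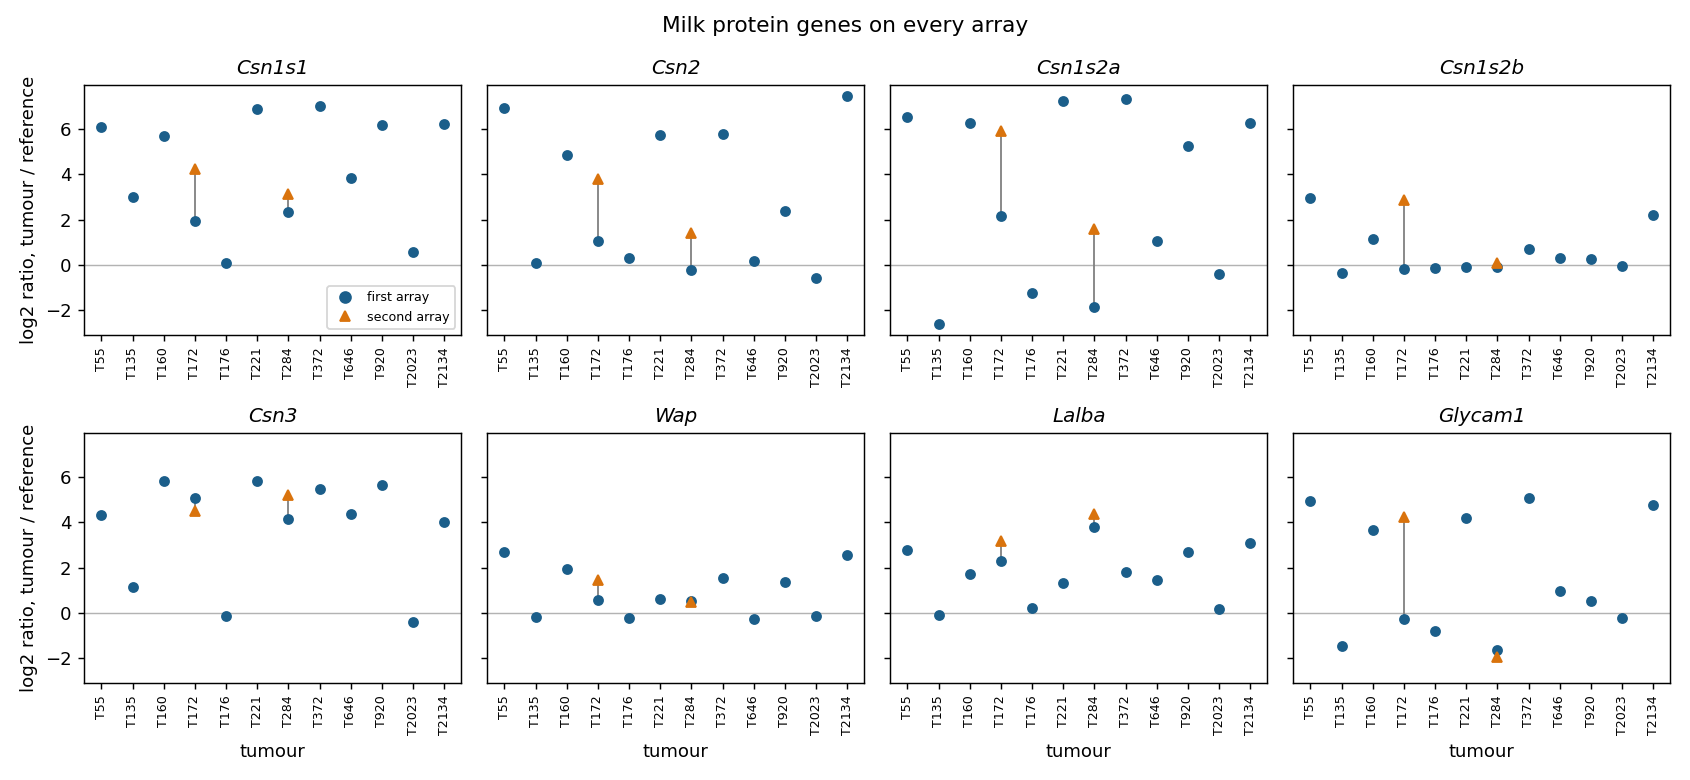
Log2 ratio of tumour over reference for each of the 8 milk protein genes (panels) on each array (x axis, by tumour); circles are first arrays, triangles the second arrays of T172 and T284, joined by a line. T176 and T2023 lie low in every panel, T135 in every panel but that of Csn1s1 (3.01), and the arrays of T172 lie 4.50 apart for Glycam1 and 0.58 apart for Csn3.

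Csn2, the gene of beta-casein, ran from far above the reference to slightly below it. Its log2 ratio was 7.42 in T2134, 6.90 in T55, 5.77 in T372, 5.70 in T221 and 4.86 in T160. It was 3.80 and 1.05 on the arrays of T172, 2.37 in T920, and 1.39 and -0.21 on those of T284. In the remaining tumours it was 0.30 in T176, 0.16 in T646, 0.07 in T135 and -0.57 in T2023, that is close to the reference. The distance between T2134 and T2023 was 8.0 ± 1.12 (SE; limma adjusted p = 0.0062), a 255-fold difference in ratio, and the F-test gave an adjusted p of 0.00293.

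Csn1s1, the alpha-s1-casein gene, was above the reference nearly everywhere. It was lowest in T176 at 0.09 and in T2023 at 0.59, had a median of 4.76 over the 12 tumours and was highest in T372 at 6.97. The next 5 tumours lay close below T372, with 6.88 in T221, 6.19 in T2134, 6.18 in T920, 6.05 in T55 and 5.69 in T160. T646 had 3.83 and T135 3.01, while the arrays of T172 gave 1.96 and 4.21 and those of T284 gave 2.35 and 3.10. T135 thus kept Csn1s1 well above the reference while its Csn2 was at 0.07, a contrast between genes that was not tested. The difference between T372 and T176 was 6.89 ± 0.88 (SE; limma adjusted p = 0.00127), and the F-test gave an adjusted p of 0.00247.

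Csn1s2a, an alpha-s2-casein gene, covered the widest range of the members. It reached 7.30 in T372, 7.24 in T221, 6.53 in T55, 6.25 in T2134, 6.23 in T160 and 5.25 in T920. It was 1.06 in T646, -0.39 in T2023, -1.22 in T176 and -2.58 in T135, so the latter tumours lay below the reference. The arrays of one tumour lay far apart in both repeated tumours, with 2.15 and 5.88 in T172 and -1.86 and 1.57 in T284. T372 and T135 differed by 9.88 ± 1.71 (SE; limma adjusted p = 0.0253), 943-fold in ratio, and the F-test gave an adjusted p of 0.00897.

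Csn1s2b, the neighbouring paralogue of Csn1s2a, stayed near the reference in most tumours. It was 2.95 in T55, 2.19 in T2134, 1.13 in T160 and 0.70 in T372, and between -0.33 (T135) and 0.31 (T646) in the tumours with a single array that remained. The arrays of T172 read -0.16 and 2.88, nearly the full range of the gene, and those of T284 -0.10 and 0.07. With that spread within a tumour the difference of 3.28 ± 1.08 (SE) between T55 and T135 did not pass (limma adjusted p = 0.2), nor did any of the other 65 pairs of tumours.

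Csn3, the kappa-casein gene, separated 3 tumours from the other 9. Its values were 5.83 in T160, 5.80 in T221, 5.61 in T920, 5.46 in T372, 4.38 in T646, 4.30 in T55 and 4.02 in T2134, with 5.05 and 4.47 on the arrays of T172 and 4.13 and 5.21 on those of T284. The low tumours were T135 at 1.13, T176 at -0.14 and T2023 at -0.42. The step between T2134 and T135 measured 2.89 ± 0.56 (SE; limma adjusted p = 0.0322). No other neighbours in the order of any member differed beyond the spread within a tumour. Csn3 also had the smallest adjusted p of the members in the F-test, 0.000367, with a measured SD of 0.612 within a tumour (0.40 after limma's shrinkage) and 2.27 between tumours.

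Wap, whey acidic protein, is the whey component particular to rodents and some other mammals. The mean of its probes was 2.68 in T55, 2.54 in T2134, 1.94 in T160, 1.55 in T372 and 1.36 in T920, and 0.61 in T221. The arrays of T172 gave 0.57 and 1.45 and those of T284 0.53 and 0.50. In T2023, T135, T176 and T646 it was -0.14, -0.16, -0.23 and -0.26. T55 and T646 differed by 2.94 ± 0.49 (SE; limma adjusted p = 0.02), and the F-test gave an adjusted p of 0.00956.

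The Wap probes did not behave alike. The probe annotated to the Wap mRNA ran from -1.45 in T135 to 4.67 in T55, with an SD of 2.08 over the 12 tumours, and it passed the F-test (adjusted p = 0.00589). The probe annotated to an expressed sequence tag ran from 0.12 in T221 to 1.45 in T920, with an SD of 0.39, and it did not pass (adjusted p = 0.565). The mRNA probe gave 15 called pairs of tumours of 66 and the tag probe 0, against 12 for their mean. Their Pearson correlation over the 12 tumours was 0.066, so the mean understates the spread that the mRNA probe shows. Which probe measures Wap was not tested.

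**Figure D2:**
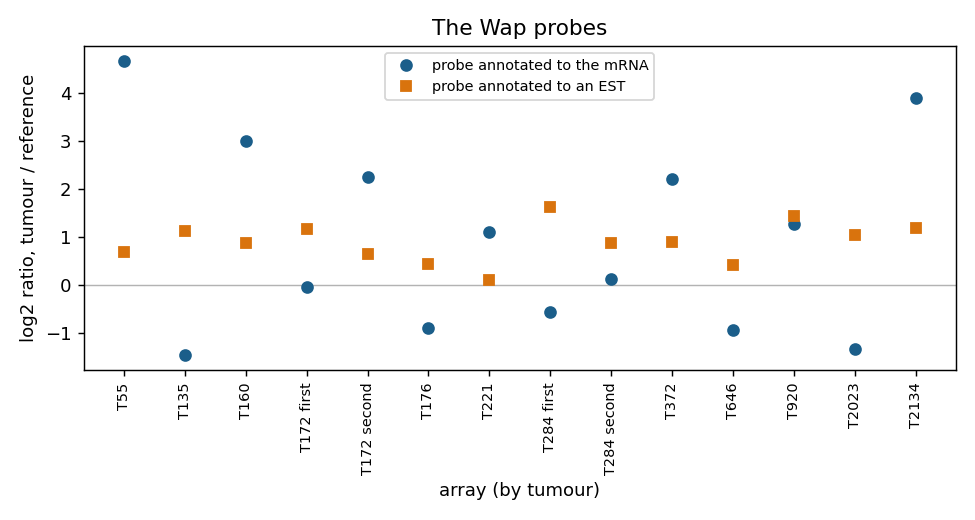
Log2 ratio of tumour over reference of the Wap probes on each of the 14 arrays; circles are the probe annotated to the mRNA, squares the probe annotated to an expressed sequence tag (EST). The circles spread from -1.45 to 4.67, while the squares stay in a narrow band above the reference.

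Lalba encodes alpha-lactalbumin, which joins beta-1,4-galactosyltransferase to form lactose synthase. Its highest values came from T284, at 3.80 and 4.34, followed by T2134 at 3.08, T55 at 2.78, T172 at 2.29 and 3.19, and T920 at 2.70. T372 had 1.80, T160 1.72, T646 1.45 and T221 1.34. T176 had 0.20, T2023 0.16 and T135 -0.10, close to the reference. T284 and T135 differed by 4.17 ± 0.45 (SE; limma adjusted p = 0.000576), and the F-test gave an adjusted p of 0.00242.

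Glycam1 encodes a mucin-like glycoprotein of milk, which is also made by the high endothelial venules of lymph nodes. It was 5.08 in T372, 4.94 in T55, 4.74 in T2134, 4.18 in T221 and 3.64 in T160. It was 0.97 in T646, 0.52 in T920, -0.21 in T2023, -0.78 in T176 and -1.44 in T135, and -1.64 and -1.92 on the arrays of T284. The arrays of T172 fell at both ends of this range, at -0.26 and 4.24. The difference of 6.86 ± 1.33 (SE) between T372 and T284 passed (limma adjusted p = 0.0124), as did the F-test (adjusted p = 0.0264). The 10 lymphoid and high endothelial venule markers measured had a mean level between -0.66 and 1.0, highest in T646 and at 0.94 in T372. Where 18.3% of all genes tested differed between tumours, 4 of these markers did: Cd79b, Ltb, Cxcl13 and Cd3d. Their part in the Glycam1 values was not tested. Chst4, Fut7 and Madcam1, markers of the venules themselves, did not pass (limma adjusted p between 0.573 and 0.894).

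Across all 66 pairs of tumours and 8 members, 127 of 528 differences passed (24.1%), where 4.65% of all gene and pair combinations did. Csn3 had 27 called pairs, Csn2 24, Csn1s1 22, Lalba 19, Csn1s2a 18, Wap 12, Glycam1 5 and Csn1s2b 0. Called differences started at 2.02 (Wap), while a difference of 7.70 did not pass for Csn1s2a, whose measured within-tumour SD was 2.53 (1.21 after limma's shrinkage towards the other genes). This count depends on T172: with either of its arrays left out it was 259 or 250. When each tumour was instead compared with the mean of the other 11, so that the spread between tumours was the yardstick, 0 of 96 member and tumour combinations passed (limma, adjusted within each tumour), against 0.395% of all combinations. At an unadjusted p under 0.05 there were 5 of 96, no larger a share than the 5.65% of all combinations, so nothing is read from them. They were Csn1s2b higher in T55 by 2.47, Lalba higher in T284 by 2.44, Csn1s1 lower in T176 (-4.57), and Csn3 lower in T2023 (-4.58) and T176 (-4.28).

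By tumour means, T135, T176 and T2023 were each among the 4 lowest tumours for all 8 members. Some of these ranks rest on small steps, such as 3.01 in T135 and 3.08 in T172 for Csn1s1 (limma adjusted p = 0.981). On the first arrays, Csn1s1 was lower in T172 (1.96) and T284 (2.35) than in T135. Csn1s2b was lower on those arrays of T172 (-0.164) and T284 (-0.104) than in T2023 (-0.065). The members ran from -1.22 to 0.30 in T176, from -0.57 to 0.59 in T2023 and from -2.58 to 3.01 in T135. The 3 tumours differed in their luminal markers, whose mean level was -4.11 in T176 but -0.03 in T2023 and 0.58 in T135. T176 was also the tumour with the highest fibroblast marker level, 2.18. Of the fibroblast markers, Col3a1 lay below its own mean over tumours in T176 (-3.30 against -2.66). Pdgfrb was higher in T646 (1.75) than in T176 (0.47). T2023 and T135 had the highest basal marker levels, 1.68 and 1.66. The next highest basal levels were 1.40 in T221 and 0.97 in T372, which were among the 4 highest tumours for most members. In T2023 the basal markers Acta2 and Oxtr lay below their own mean over tumours. The part of these cell types in the milk protein values was not tested.

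At the other end, T2134 was among the 4 highest tumours for 7 members, T372 and T55 for 6 each and T221 for 5. T160, T2134 and T55 had all 8 members at least 2-fold above the reference. So did T172 as the mean of its arrays, but on its first array Wap, Csn1s2b and Glycam1 were below that mark, at 0.57, -0.16 and -0.26. In T2134 the salivary markers Cst10, Amy1, Smr3a, Bpifa2 and Pip stood at log2 ratios of 5.07, 3.53, 3.07, 2.11 and 2.02. The other 4 measured had Dcpp1 at 0.83, Aqp5 at 0.53, Prol1 at -0.28 and Mucl2 at -4.10, of which Aqp5 and Prol1 lay below their own mean over tumours. Their part in the milk protein values of T2134 was not tested. In T55 the salivary marker level was below 0, as in most tumours, while the milk protein level was 2.19, as a mean difference from each member's own mean, beside 2.10 in T2134. The adipocyte marker level was highest in T221, at 2.06, also as a mean difference from each gene's own mean. Of these markers, Lep (-0.26) lay below its own mean over tumours in T221. Every adipocyte marker measured was below the reference in that tumour.

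T284 split the members. Against T2134, it was lower in Csn2 by 6.83, in Glycam1 by 6.53, in Csn1s2a by 6.40, in Csn1s1 by 3.46 and in Wap by 2.02, all passing in limma (adjusted p between 0.00393 and 0.0387). It was lower in Csn1s2b too (-2.21), which did not pass (adjusted p = 0.253). Its differences in Csn3 (0.65, adjusted p = 0.582) and Lalba (0.99, adjusted p = 0.300) had the opposite sign and did not pass. Against T2023, one of the lowest tumours, T284 was higher in Csn3 by 5.09 ± 0.49 (SE; limma adjusted p = 0.000244) and in Lalba by 3.91 ± 0.45 (adjusted p = 0.000691). The same pair did not pass for Csn1s1 (2.13), Csn2 (1.16), Wap (0.65), Csn1s2a (0.25), Csn1s2b (0.05) or Glycam1 (-1.57). Whether the genes differ in these contrasts was not tested.

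The arrays of T172 disagreed on 5 of the 8 milk protein genes more than on almost any other gene. They disagreed much less on Lalba, Csn3 and the mean of the Wap probes. The second array was higher by 4.50 for Glycam1, or 22.7-fold, which was the largest difference between these arrays among all genes tested. Csn1s2a (3.72) ranked 2, Csn1s2b (3.04) ranked 4, Csn2 (2.75) ranked 8 and Csn1s1 (2.26) ranked 14 by size of the difference. Lalba differed by 0.90, the mean of the Wap probes by 0.89 and Csn3 by -0.58. The Wap mRNA probe alone differed by 2.28, close to Csn1s1, and the tag probe by -0.51. The median absolute difference was 2.50 for the 8 members and 0.306 for all genes. None of the marker lists had a median above 0.734, the value of the salivary markers, and the luminal marker level was 0.13 on the first array and -0.16 on the second. The arrays of T284 differed by 3.44 for Csn1s2a, the fourth largest difference of all genes there, by 1.59 for Csn2 and by 1.08 for Csn3. The other members of T284 differed by 0.75 or less, and the median absolute difference was 0.645 against 0.338 for all genes. Since "biorep" is not explained, it is not known whether these are separate pieces of a tumour.

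**Figure D3:**
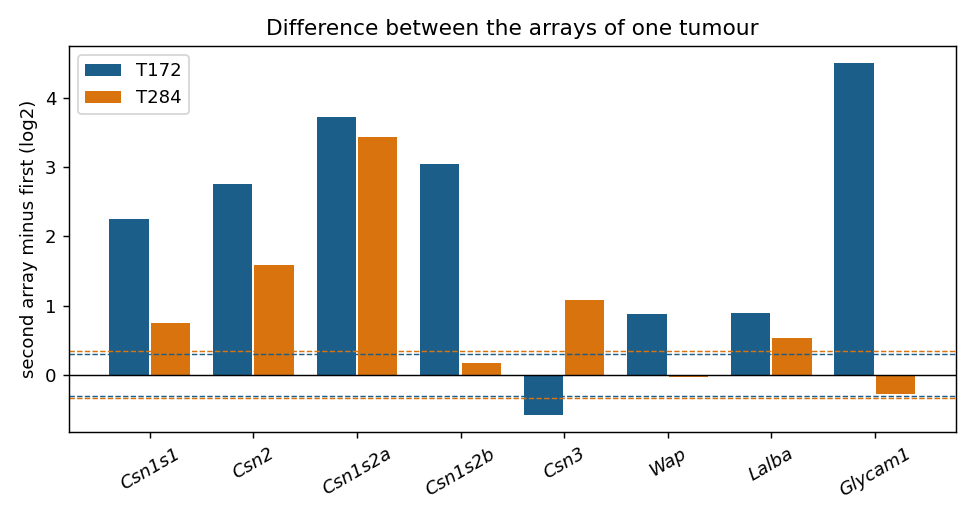
Second array minus first array, in log2 ratio, for each milk protein gene in T172 (blue) and T284 (orange); dashed lines mark the median absolute difference over all genes, 0.306 and 0.338. For T172, 5 genes lie above 2, and Csn3, Lalba and Wap, as the mean of its probes, lie below 1.

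The next question was whether the members moved together over the 12 tumours. Pearson and Spearman correlations were computed for all 28 pairs of members and for Csn2, Wap and Lalba with 6 regulators, 46 relations in all, each with a permutation test and Benjamini-Hochberg adjustment over the 46. Of the 28 pairs, 13 passed by Pearson r. The share that would pass among pairs of other genes was not computed. All relations run over the same 12 RNA samples, and the ratios of one array share its dye balance and hybridisation.

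Csn2 and Glycam1 moved most closely together, with r = 0.937 and rho = 0.846 (n = 12; permutation p = 5e-05 and 0.001, adjusted p = 0.0023 and 0.00767), and r = 0.919 without the 2 tumours farthest from the median of Csn2. Csn2 and Csn1s2a had r = 0.904 and rho = 0.881 (n = 12; permutation p = 0.00046 and 0.00031, adjusted p = 0.00353 and 0.00475), and r = 0.934 without the 2 farthest tumours. Csn2 and Csn1s1 had r = 0.835 and rho = 0.783 (n = 12; permutation p = 0.00158 and 0.00404, adjusted p = 0.00908 and 0.0169), and r = 0.825 without the 2 farthest. For the whey protein Wap, r with Csn2 was 0.885 and rho 0.867 (n = 12; permutation p = 0.00035 and 0.0005, adjusted p = 0.00322 and 0.00575), with r = 0.792 without the 2 farthest. With the Wap mRNA probe alone r was 0.933, a setting chosen after seeing the data. Csn1s2b and Wap had r = 0.867 (n = 12; permutation p = 0.00028, adjusted p = 0.00322), which fell to 0.713 without the 2 tumours farthest from the median of Csn1s2b and then no longer passed.

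Lalba did not pass with any other member by Pearson r. With Csn2 it had r = 0.430 and rho = 0.636 (n = 12; permutation p = 0.162 and 0.0306, adjusted p = 0.232 and 0.067), and r = 0.245 without the 2 tumours farthest from the median of Csn2. These relations turned on T284. Without that tumour, r of Lalba was 0.701 with Csn2 (n = 11; adjusted permutation p = 0.042), 0.784 with Csn1s2a, 0.823 with Wap, 0.680 with Glycam1, 0.777 with Csn1s2b and 0.675 with Csn1s1, and all 6 passed. Glycam1 and Csn1s1 passed only narrowly (adjusted permutation p = 0.0486 and 0.0482). Every tumour was left out in turn, and T284 was singled out after these runs were seen. Over all 12 tumours, Lalba passed with Csn1s2b by rho only (0.727, permutation p = 0.00947, adjusted p = 0.0272).

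Csn3 gets no r over all tumours, because its values fall apart into 3 low and 9 high tumours. Within the 9 high tumours its r with the other members lay between -0.553 (Csn1s2b) and 0.415 (Csn1s1), and no relation passed (permutation p between 0.127 and 0.944). The range of Csn3 there was only 1.81, from 4.02 to 5.83, while Csn2 ran from 0.16 to 7.42 in the same tumours. T646 and T284 thus had kappa-casein at the level of T55 while their beta-casein was close to the reference.

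**Figure D4:**
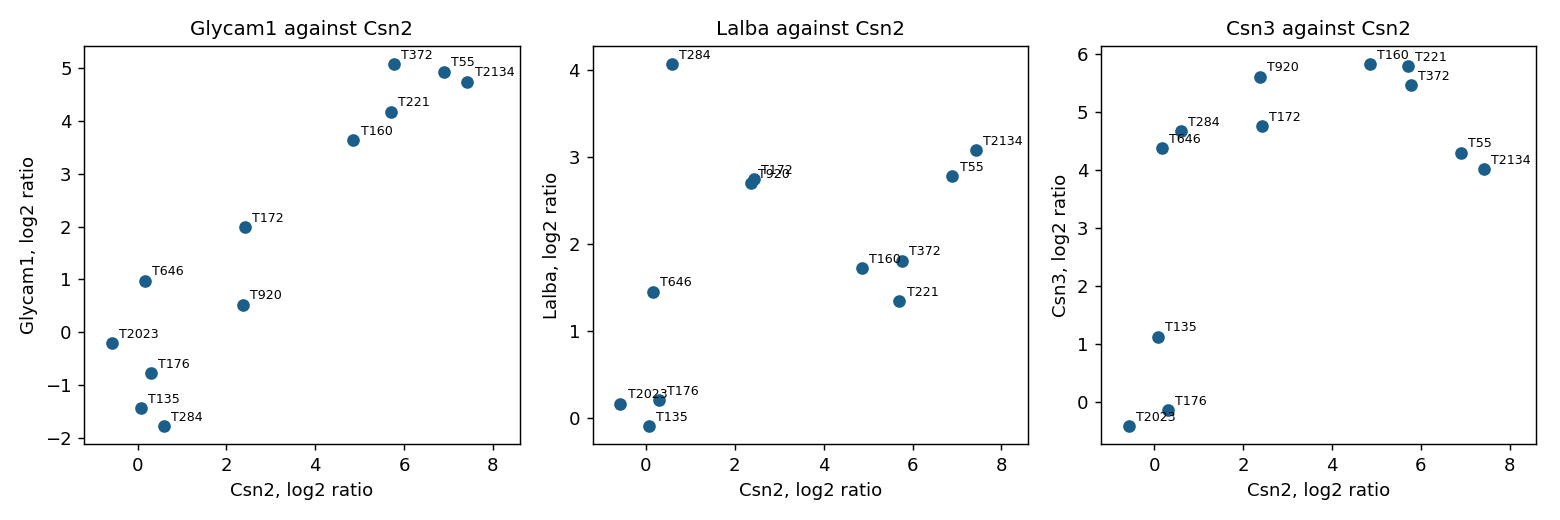
Log2 ratios of Glycam1, Lalba and Csn3 (y axes) against that of Csn2 (x axis), 1 point per tumour, with the arrays of T172 and T284 averaged. Glycam1 follows Csn2 (r = 0.937), T284 lies apart for Lalba, and Csn3 is high in 9 tumours whatever their Csn2 value.

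Among the regulators, Elf5, which drives the alveolar fate, was high in most tumours. Its log2 ratio was -2.23 in T176, -0.16 in T646, 1.77 in T2023 and 2.03 in T135, and between 3.45 and 4.83 in the other 8 (limma F-test adjusted p = 0.000152). T284 had 4.60, among the highest. Elf5 passed with Lalba (r = 0.713, rho = 0.818; n = 12, permutation p = 0.00721 and 0.00202, adjusted p = 0.0207 and 0.0103; r = 0.894 without the 2 farthest tumours) and with Wap (r = 0.738, permutation p = 0.00449, adjusted p = 0.0161; r = 0.753 without the 2 farthest). It did not pass with Csn2 (r = 0.616, permutation p = 0.0263, adjusted p = 0.0604). Stat5a, the main STAT5 of the gland, ran from -0.18 in T176 to 2.10 in T920 (limma adjusted p = 0.0316). It passed with Wap (r = 0.833, rho = 0.825; n = 12, permutation p = 0.00115 and 0.00172, adjusted p = 0.00756 and 0.00989; r = 0.868 without the 2 farthest) and with Lalba (r = 0.742, permutation p = 0.00629, adjusted p = 0.0193; r = 0.736 without the 2 farthest, where it no longer passed, adjusted p = 0.0561). With the Wap mRNA probe alone, r with Wap fell to 0.672 for Elf5 and 0.780 for Stat5a, and each still passed (adjusted permutation p = 0.0363 and 0.0141). With Csn2 Stat5a passed by rho (0.692, permutation p = 0.0155, adjusted p = 0.0376) but not by r (0.655, permutation p = 0.0233, adjusted p = 0.0563). With only the second arrays of T172 and T284 in use, r with Csn2 passed for Elf5 and Stat5a (adjusted permutation p = 0.0381 and 0.0414). Stat5b passed with Lalba (r = 0.740, rho = 0.839; n = 12, permutation p = 0.00462 and 0.00099, adjusted p = 0.0161 and 0.00767; r = 0.870 without the 2 farthest), while its own F-test did not pass (adjusted p = 0.144). Without T176, where luminal markers were low, the relations of Elf5 and of Stat5a with Lalba no longer passed (adjusted permutation p = 0.0548 for each). The steroid receptors Esr1 and Pgr and the luminal factor Gata3 passed with none of the 3 members (adjusted permutation p between 0.156 and 0.584). The prolactin receptor gene Prlr was not analysed here.

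For the counts that follow, 18.3% of all genes tested differed between tumours, with a median SD of 0.386. Of the prolactin and STAT5 axis, 12 of 25 measured genes differed between tumours, with a median SD of 0.687. The widest were Elf5, Gata3 (-4.19 in T176 to 2.37 in T646; limma adjusted p = 0.00711), Socs2, a feedback inhibitor of the receptor (-2.09 in T2023 to 3.11 in T172; 0.0002), and Ccnd1 (-0.60 in T2134 to 2.20 in T2023; 0.00711). Ccnd1, the cyclin D1 gene, was thus lowest where Csn2 was highest and highest where Csn2 was lowest, a match of single tumours that was not tested. Tumours between these ends did not all follow that order. Ccnd1 was -0.50 in T55 but 1.51 in T372, both high in Csn2, and 0.23 in T284, which was low in Csn2. Of the other milk and secretion genes, 20 of 28 measured differed, with a median SD of 0.914. The widest were Ltf, the lactoferrin gene (-2.90 in T176 to 4.84 in T135), Lao1, an amino acid oxidase of milk (-1.38 in T135 to 5.47 in T55), Fabp3, a fatty acid carrier (-4.92 in T135 to 1.61 in T2134), and Slc5a8, a monocarboxylate transporter (-1.24 in T176 to 5.18 in T920). Ltf was highest in T135, a tumour among the 4 lowest for every member by tumour means. The genes of milk fat droplet secretion, Btn1a1 and Xdh, were both highest in T2134, at 3.27 and 3.74, and are named although they fall outside the naming rule. Of the involution genes, which mark the regressing gland after weaning, 10 of 15 differed, with a median SD of 0.786, led by Clu, Mmp3, Lcn2 and Lbp, all lowest in T176. The marker lists had 10 of 10 luminal, 5 of 7 basal, 6 of 6 fibroblast, 4 of 5 adipocyte, 4 of 10 lymphoid and 7 of 9 salivary genes called.

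All 5 caseins lie in one cluster on chromosome 5, in the order Csn1s1, Csn2, Csn1s2a, Csn1s2b and Csn3, with Prr27, Odam and BC037156 between Csn1s2b and Csn3. Neighbours were looked at because the members share this locus. Odam, an ameloblast protein gene, differed between tumours (limma adjusted p = 0.00436) and was above the reference only in T172 (1.95) and T2134 (0.89), with -2.48 to -1.09 elsewhere. Sult1e1, the estrogen sulfotransferase gene before Csn1s1, also differed (adjusted p = 0.000424), at 3.91 in T172, 0.90 in T284 and -1.66 to -0.20 in the rest. Smr3a, a salivary gene after Csn3, differed too (adjusted p = 0.00646) and was highest in T2134 (3.07) and T372 (1.65). Sult1b1, Sult1d1, Prr27, Cabs1 and Smr2 did not pass (adjusted p between 0.170 and 0.979). Tumours with high Csn2 such as T55, T221 and T160 thus had Odam and Sult1e1 below the reference.

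**Figure D5:**
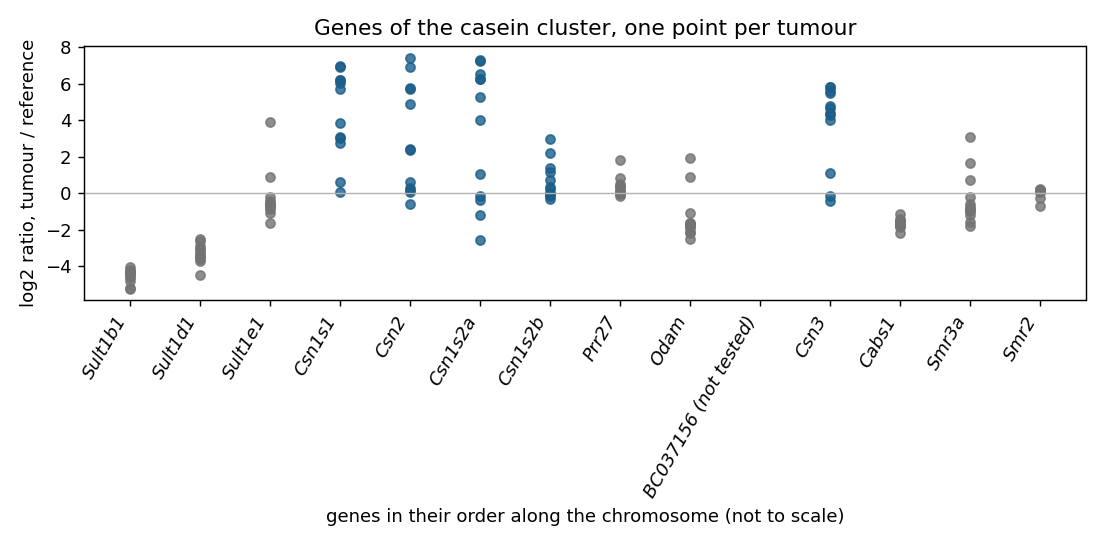
Log2 ratio of tumour over reference (y axis), 1 point per tumour, for genes in their order along the casein cluster, from 3 genes before Csn1s1 to 3 after Csn3 (not to scale; BC037156 has no values). Caseins are blue and the other genes grey; Csn1s1, Csn2, Csn1s2a and Csn3 span 6.25 or more between tumours.

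The genes whose pattern was most like that of a member were sought among the 1318 genes with an SD of at least 1 over the 12 tumours, by Pearson r, as a description. For Csn2 they were Muc4 (0.923), Sftpd (0.910), Atp13a4 (0.898), Apol6 (0.892), Cyp3a41a (0.880), Saa2 (0.878), Bcl2l15 (0.873) and Lao1 (0.867). Muc4 encodes a membrane mucin and Sftpd surfactant protein D, a secreted collectin. For Wap they were Tmc5 (0.934), Lao1 (0.913), Acbd7 (0.898), Fezf1 (0.893), Ogfrl1 (0.882), Saa2 (0.862), Gldc (0.851) and Cyp2f2 (0.839). Lao1 and Saa2, a serum amyloid A gene, are in both sets. Glycam1 was most like Sftpd (0.901), Cyp3a41a (0.852) and Atp13a4 (0.852), all of which are in the set of Csn2. Csn1s2a was most like Lao1 (0.885), Muc4 (0.829) and Ada (0.813), and Csn1s1 most like Ogfrl1 (0.897), Cfb (0.895) and Oas2 (0.888). Csn1s2b was most like Gldc (0.926), Acbd7 (0.914) and Olah (0.911), the last a thioesterase that ends fatty acid chains of milk fat at medium length. Lalba was most like Timd2 (0.924), Scrg1 (0.919) and Pde9a (0.909). No likeness is given for Csn3, whose values split into 3 low and 9 high tumours.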

How the data were processed

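Total RNA of 12 tumours (Qiagen RNeasy kit, per the labels) was hybridised on 14 dual-colour arrays. The deposited series table holds 1 log2 value per probe and array, read as log2 of Cy5 (tumour) over Cy3 (reference); the direction comes from the dyes, per the labels, and base 2 was inferred from the range, -9.19 to 7.42. For background correction, normalization and filters the method is unknown (not given in the sources used here). A dye effect that is the same on all arrays is part of each ratio but cancels between tumours. One that varies between arrays does not cancel. No signal levels were at hand, so dim probes could not be recognised, and the number of arrays limits precision; each array had 22501 to 22566 of 22575 probes.

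Probes with 1 symbol in the platform annotation (18658; 30 had several, 3887 none) were named through the RefSeq gene table of GRCm38.p6, which matched 18445 by Entrez identifier and 24 by accession; 189 kept the annotation's symbol. Probes of a gene were averaged, and genes with values on at least 12 arrays were kept. limma 3.58.1 in R 4.3.3 fitted 12 tumours to 14 arrays (F-test and 66 pairs) and each tumour against the other 11 on tumour means, where a lone tumour is assumed to vary like the rest. P-values were Benjamini-Hochberg adjusted over all genes, separately within each pair and each lone tumour, and called under 0.05. They were not adjusted over pairs or over tumours. Relations used Python 3.11.15 and 100000 resamples, two-sided, on tumour means. They had no pooled r where a gap over 0.4 of the range split a gene's values with at least 3 tumours on each side.

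On simulated data over 16535 genes, the F-test found 58% of genes with an SD of 1 and 99% of those with an SD of 2. Comparing a tumour with the other 11 found 56% at a shift of 2 and 87% at a shift of 4. The genes changed in the simulation were picked at random from all genes. The median SD over tumours was 0.386 for all genes tested and 2.34 for the members, so these shares do not hold for the members. How often a change in a member would be found was not simulated. The members and lists were chosen with earlier results of these data known. Named genes were all members, up to 4 called genes of the prolactin, milk and involution lists with the largest SD, Elf5, Stat5a, Stat5b, Esr1, Pgr, Gata3, Krt8 and Krt18, the casein cluster's neighbours, and the 3 genes most like each member (8 for Csn2 and Wap; none printed for Csn3, whose values split). Marker genes and pathway genes named beyond this rule were chosen after their values were seen. Alternatives changed the normalization, prior, probe rule, filter, centring, the arrays used and a term for second arrays.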

Additional observations from a re-analysis of the deposited data

How the results depend on the processing

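The number of members called between tumours ran from 5 to 8 over all alternatives. With a robust prior Csn1s2a and Glycam1 no longer passed (limma adjusted p = 0.0778 and 0.148), and Csn1s2b passed without either array of T172 (2.88e-05 and 0.000204) or without the tumour (0.000185). The number of genes called, 3094, was 3037 to 4186 under other normalization, priors, filters and probe rules, and 2509 to 4005 when an array or tumour was left out. With a replicate block for the second arrays, which only T172 and T284 have, 7124 genes and 314 pair differences of members passed, and Csn1s2b too (1.93e-05); this fit has 1 residual degree of freedom, and the labels do not say that the second arrays form a batch. The 127 pair differences became 104 with the robust prior and 142 with quantile normalization, and 143 to 259 when an array of T172 or T284 was left out, an alternative chosen after seeing the data. Of the 46 relations, 18 passed in all tumours, 11 without the 2 farthest and 14 to 25 with a tumour left out. No relation that passed changed sign, while the signs of the pair differences were not compared between alternatives. Each tumour against the other 11 gave 0 member calls under each alternative run for it, which did not include the block. No member met the criteria for a closer look, since groups held 1 or 2 arrays or all 12 tumours.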
